A study of Sus scrofa with 28 samples.

Results

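Expression of 5 genes of the transforming growth factor beta (TGF-beta) and bone morphogenetic protein (BMP) pathways was followed in kidney cortex of Göttingen Minipigs, a small pig breed used as a model of obesity and diabetes. They were taken by name from a quantitative PCR panel of 73 kidney genes and 4 reference genes, the assays kept after the authors' quality checks. All 5 had a value in each of 28 animals. The 5 were the ligand TGFB2, the activator TSP1 (thrombospondin 1), the mediator SMAD4, the target CTGF (connective tissue growth factor) and the BMP antagonist GREM1 (gremlin 1). All animals were adult castrated males. The SD group (n = 7) ate a standard diet, the FFC group (n = 13) a diet high in fat, fructose and cholesterol, and the FFC-DIA group (n = 8) the FFC diet with diabetes induced by streptozotocin, which destroys pancreatic beta cells, and treated with insulin. The cholesterol content of the FFC feed was reduced during the study in the FFC group but was at the lower level from the start in the FFC-DIA group, so diabetes, insulin and early dietary cholesterol cannot be told apart in a comparison of these groups. No diabetic group ate the standard diet. The tissue was taken at the end of a feeding period of more than a year.

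TGF-beta ligands are secreted in a latent form, and thrombospondin 1 is one of the proteins that can release the active ligand. The active ligand binds a receptor pair that phosphorylates SMAD proteins, which enter the nucleus together with SMAD4, and CTGF is a well known transcriptional target. BMPs signal through a related receptor system that also uses SMAD4, and gremlin 1 binds BMPs outside the cell and blocks them. In the kidney, TGF-beta is known for driving matrix deposition in glomeruli and interstitium, whereas BMP signalling is known to oppose it.

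Each gene was read with 1 primer pair. The 10 primers are shown because they define which transcripts the values refer to. The sequences are written 5′ to 3′ and the capitals mark the last 5 bases at the 3′ end, from which the polymerase extends.
TGFB2 forward: cagtgggaagaccccACATC
TGFB2 reverse: atgtaaagtggacgcAGGCA
TSP1 forward: ctacaacgtggaccagaGAGAC
TSP1 reverse: gtatctccaatgcggtcTGAGT
SMAD4 forward: ccaccaactttcccaacATTCC
SMAD4 reverse: tagctggctgaccagtaAATCC
CTGF forward: tcaggccttgtgaagCTGAC
CTGF reverse: agctcaaacttgacgGGCTT
GREM1 forward: cagctgttctccaagaaGCTGA
GREM1 reverse: cccttgggaccccttcTTTTT
The primers were 20 to 22 bases long. The reverse primer of GREM1 had 0 G or C among its last 5 bases, whereas the other 9 had 2 or 3. Of the names, 4 are symbols of the pig gene table of RefSeq, and TSP1 is listed there as THBS1.

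The files held the quantification cycle (Cq), the PCR cycle at which fluorescence crosses a threshold, so that a lower Cq means more template. The template had been pre-amplified by PCR before it was read, and Cq does not count the cycles of that step. Averaged over the 28 animals, Cq was 7.02 for TSP1, 8.47 for SMAD4, 8.77 for CTGF, 14.2 for TGFB2 and 19.8 for GREM1. GREM1 had the latest mean Cq of all 73 kidney genes and TSP1 the second earliest. These means describe when each assay was read, and different assays are not compared as amounts. Precision is lower for late assays, which begin with little template. Values below are log2 relative quantities, obtained by subtracting each gene's Cq from the average Cq of 3 reference genes (ACTB, TBP1, RPL4) and shifting the SD group to a mean of 0, so that 1 unit is a 2-fold difference if the product doubles in each cycle.

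The reference genes were not equally stable. RPL4, a ribosomal protein gene, had a mean Cq of 7.86 ± 0.84 (standard deviation, n = 7) in the SD group, 9.30 ± 1.24 (n = 13) in the FFC group and 8.11 ± 1.07 (n = 8) in the FFC-DIA group. A late RPL4 Cq raises every relative quantity of that animal. The median gene of the panel had a log2 difference of 0.55 in FFC vs. SD, 0.21 in FFC-DIA vs. SD and -0.33 in FFC-DIA vs. FFC. Each member was therefore also centred on the average of all 73 kidney genes in its animal, called the panel mean below. GAPDH, the reference gene not used, had a Cq of 20.6 in 1 SD animal against a median of 8.44 in that group.

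**Figure D1:**
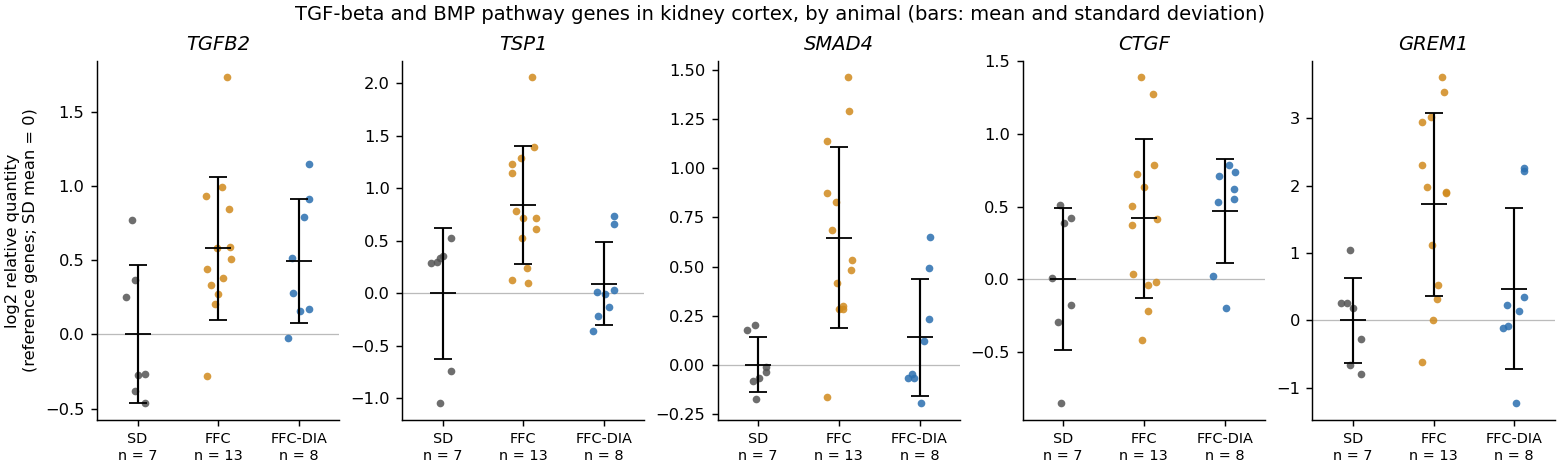
Log2 relative quantity (vertical axis, reference genes ACTB, TBP1 and RPL4, mean of the SD group = 0) of the 5 genes in each animal of the SD (n = 7), FFC (n = 13) and FFC-DIA (n = 8) groups. Points are animals, bars give mean and standard deviation, and each gene has its own vertical scale. The FFC means of SMAD4, TSP1 and GREM1 were 0.65, 0.84 and 1.72, and GREM1 spread over the widest range in the FFC group, from -0.63 to 3.61.

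In FFC compared with SD animals, the comparison that addresses the diet alone, all 5 members had higher means and SMAD4, TSP1 and GREM1 passed the test. The exact permutation test with Benjamini-Hochberg adjustment over the 73 genes called 19.2% of all genes, 14 of them, and 3 of the 5 members. The median difference of the members was 0.65 on the log2 scale, against 0.55 over all 73 genes. Relative to the panel mean, 0 of the 5 members passed, where 1.37% of all genes did, and the median difference of the members was 0.13 against 0.03 over all genes. On that scale 1 member had an unadjusted exact permutation p under 0.05. Of all 73 genes, 4 were higher and 7 lower at that threshold.

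SMAD4, the shared partner of the TGF-beta and BMP signalling SMADs, lay between -0.18 and 0.20 in the SD group, with a median of -0.04. In the FFC group it ran from -0.17 through a median of 0.53 to 1.46. Of the 13 FFC animals 12 lay above every SD animal, and the remaining animal was within the SD range. The mean difference was 0.65 (standard error 0.14), or 1.57-fold, with an exact permutation p of 0.00239, adjusted to 0.0448. After centring on the panel mean the difference was 0.13 (standard error 0.15), with an adjusted exact permutation p of 0.80, and 1 FFC animal lay above every SD animal.

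TSP1, the activator of latent TGF-beta, ran from -1.05 through 0.30 to 0.52 in the SD group (lowest, median and highest). In the FFC group the same values were 0.09, 0.72 and 2.06. All 13 FFC animals were above the SD mean and 10 were above every SD animal, while 2 SD animals lay far below the other 5. The difference was 0.84 (standard error 0.28), or 1.79-fold, with an exact permutation p of 0.00529, adjusted to 0.0448. Measured against the panel mean it was 0.32 (standard error 0.19), with an adjusted exact permutation p of 0.34.

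GREM1, the BMP antagonist, had the largest difference of the 73 genes in this comparison with the reference genes. Relative to the panel mean the basement membrane collagen gene COL4A2 (-2.03, adjusted exact permutation p = 0.59) and CD8A (-1.40, adjusted 0.0264) lay further from 0. It ran from -0.80 through 0.19 to 1.04 in the SD group and from -0.63 through 1.91 to 3.61 in the FFC group. Of the 13 FFC animals 9 lay above every SD animal, and the other 4 lay within the SD range. The difference was 1.72 (standard error 0.45), or 3.30-fold, with an exact permutation p of 0.00675, adjusted to 0.0448. With centring on the panel mean it was 1.21 (standard error 0.33), or 2.31-fold, with an exact permutation p of 0.0113 that became 0.118 after adjustment.

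TGFB2, a TGF-beta ligand, and CTGF, the target gene, did not pass. TGFB2 ran from -0.46 through -0.27 to 0.77 in the SD group and from -0.28 through 0.51 to 1.73 in the FFC group, and 4 of 13 FFC animals lay above every SD animal. Its difference of 0.58 (standard error 0.22) had an exact permutation p of 0.0178, adjusted to 0.0813. CTGF ran from -0.85 through 0.01 to 0.51 in the SD group and from -0.42 through 0.41 to 1.39 in the FFC group, so that the groups overlapped over most of their ranges. Its difference of 0.42 (standard error 0.24) had an adjusted exact permutation p of 0.20, and relative to the panel mean it was -0.10 (standard error 0.24).

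The 3 calls in FFC vs. SD depended on RPL4. With ACTB and TBP1 without RPL4 the differences were 0.24 for SMAD4, 0.43 for TSP1 and 1.32 for GREM1, and 0 members and 0 of the 73 genes passed. With RPL4 alone they were 1.46, 1.66 and 2.54 and all 5 members passed, as did 72.6% of all genes. With GAPDH alone SMAD4, TSP1, TGFB2 and CTGF changed sign, to between -0.91 and -0.49, and GREM1 was at 0.40. These sign changes came from SD 6, the animal with the GAPDH Cq of 20.6, since without it the differences with GAPDH alone were 1.06 for SMAD4, 1.27 for TSP1, 1.01 for TGFB2, 0.88 for CTGF and 2.27 for GREM1, again with 0 members and 0 of the 73 genes called. GREM1 was higher in FFC than in SD animals with every reference tried. The adjusted p-values lay close to 0.05, and calls were lost when 1 animal was left out although the differences stayed between 0.58 and 0.72 for SMAD4, 0.66 and 0.93 for TSP1 and 1.57 and 1.92 for GREM1. The call of SMAD4 was lost without any 1 of FFC 1, 2, 3, 5, 7, 8, 9 or 10 or of SD 1, 2, 3 or 7, and its adjusted p over all 20 omissions lay between 0.0166 and 0.107. TSP1 was lost without any of the same animals or without SD 4 (0.0178 to 0.113). GREM1 was lost without any of those or without FFC 12 (0.0166 to 0.113). TGFB2 was gained without FFC 13 (adjusted p 0.0237) or without SD 4 (0.0390). All these are exact permutation tests.

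**Figure D2:**
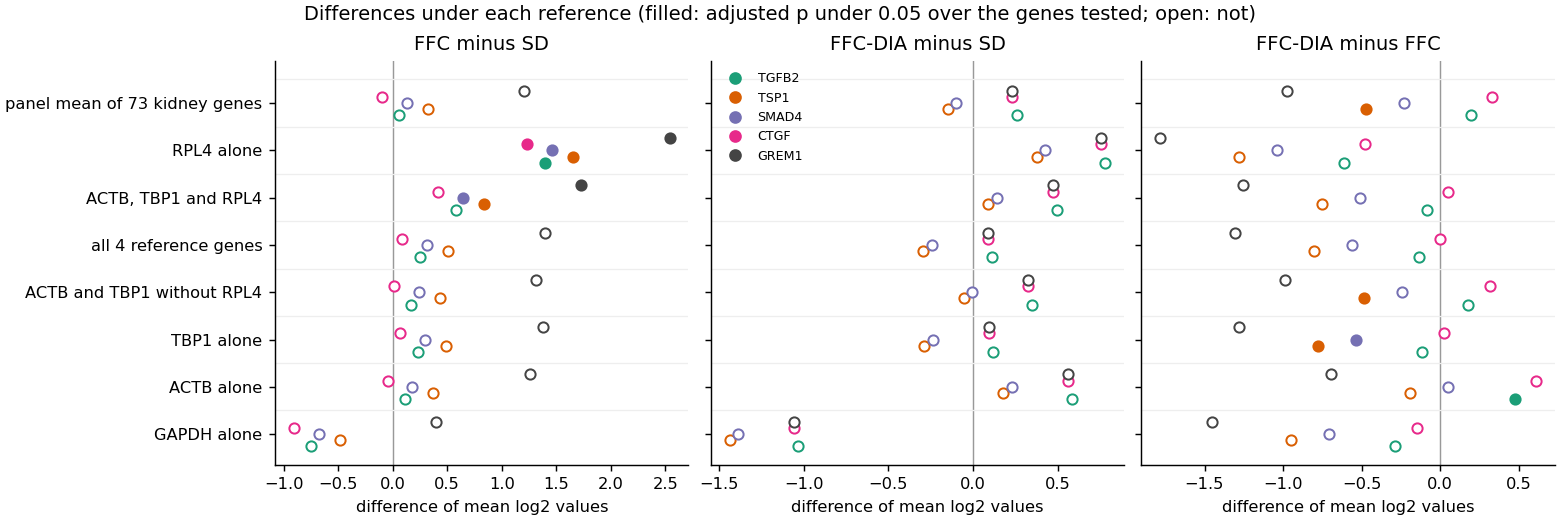
Difference of mean log2 values (horizontal axis) of the 5 genes in the 3 pairs of groups, computed with each reference (vertical axis): each reference gene alone, 3 sets of them, and the mean of the 73 kidney genes. Filled circles passed the exact permutation test at an adjusted p under 0.05 over all genes, open circles did not. All 5 genes passed in FFC vs. SD with RPL4 alone, where 72.6% of the 73 genes did, and GREM1 stayed above 0 in that pair throughout. The GAPDH values include SD 6, without which GREM1 was at 2.27 in place of 0.40.

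In FFC-DIA compared with SD animals, which differ in both diet and diabetes, 0 of the 5 members passed the exact permutation test after adjustment, and 0 had an unadjusted p under 0.05. The test called 2.74% of the 73 genes after adjustment, and 5 were higher and 3 lower at an unadjusted p under 0.05. Limma also called 0 members. The members' median difference was 0.47 against 0.21 over all genes. This comparison shares its SD animals with the one above. TGFB2 had the largest difference, 0.49 (standard error 0.23, exact permutation p = 0.0519, adjusted 0.38), with FFC-DIA animals between -0.02 and 1.15 around a median of 0.40. CTGF followed with 0.47 (standard error 0.22, exact permutation p = 0.0514), and 6 of 8 FFC-DIA animals lay above every SD animal. The FFC-DIA values of CTGF ran from -0.19 through 0.59 to 0.78.

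SMAD4 and TSP1 were near the SD level on average, with differences of 0.14 (standard error 0.12) and 0.09 (standard error 0.27). GREM1 differed by 0.47, as much as CTGF, but with a standard error of 0.49, and was spread widely, from -1.24 in FFC-DIA 1 through a median of 0.18 to 2.26 in FFC-DIA 8. Relative to the panel mean, where 4.11% of all genes passed, 0 members did. TGFB2 had the smallest p there, with a difference of 0.26 (standard error 0.11, exact permutation p = 0.0395, adjusted 0.26). The members' median was 0.23 against -0.02 over all genes. SMAD4 and TSP1 changed sign on that scale, to -0.10 and -0.15.

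In FFC-DIA compared with FFC animals the members parted. TSP1, SMAD4 and GREM1 had lower means in the FFC-DIA group, while TGFB2 and CTGF were nearly level. With the reference genes 0 members passed after adjustment, where the test called 5.48% of the 73 genes. TSP1, SMAD4 and GREM1 had unadjusted exact permutation p-values under 0.05. At that threshold 1 of the 73 genes was higher and 15 were lower. Limma also called 0 members. The median of the members was -0.51 against -0.33 over all genes. When values were centred on the panel mean, TSP1 fell and was 1 of the 8.22% of genes called, and the median of the members was -0.23 against -0.05.

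TSP1 in the FFC-DIA group ran from -0.36 through 0.00 to 0.74, and 6 of its 8 animals lay below every FFC animal. All 8 lay below the FFC mean. The difference was -0.75 (standard error 0.21), or 0.59-fold, with an exact permutation p of 0.00368, adjusted to 0.0537. On the panel-mean scale the FFC animals lay between -0.17 and 0.64 and the FFC-DIA animals between -0.63 and 0.38. The difference there was -0.47 (standard error 0.12), or 0.72-fold, with an exact permutation p of 0.00116, adjusted to 0.0261. The adjusted exact permutation p was 0.0620 without FFC-DIA 5, 0.0596 without FFC-DIA 6 and 0.0584 without FFC-DIA 7, with differences of -0.40, -0.47 and -0.47. On the reference gene scale the call was gained without any 1 of FFC-DIA 6 (0.0445), FFC-DIA 8 (0.0362), FFC 4 (0.0421), FFC 12 (0.0303) or FFC 13 (0.0326). TSP1 was lower in FFC-DIA than in FFC animals with every reference tried, by -0.19 with ACTB alone to -1.28 with RPL4 alone.

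SMAD4 in the FFC-DIA group ran from -0.20 through 0.04 to 0.65. Its difference from FFC was -0.51 (standard error 0.17, exact permutation p = 0.0127, adjusted 0.15), it was -0.23 (standard error 0.09, adjusted 0.17) relative to the panel mean, and it changed sign to 0.05 with ACTB alone. It passed with TBP1 alone (difference -0.54), where 12.3% of all genes passed, and, at an adjusted exact permutation p of 0.0411, without FFC 13. GREM1 differed by -1.25 (standard error 0.57, exact permutation p = 0.0469, adjusted 0.21), or 0.42-fold, and by -0.97 (standard error 0.41, adjusted 0.22) relative to the panel mean. CTGF differed by 0.05 (standard error 0.20) and by 0.33 (standard error 0.14, adjusted exact permutation p = 0.22) relative to the panel mean. TGFB2 differed by -0.08 (standard error 0.20) and by 0.20 (standard error 0.11, adjusted 0.40). With ACTB alone TGFB2 changed sign and passed, at 0.47, where 9.59% of all genes passed.

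**Figure D3:**
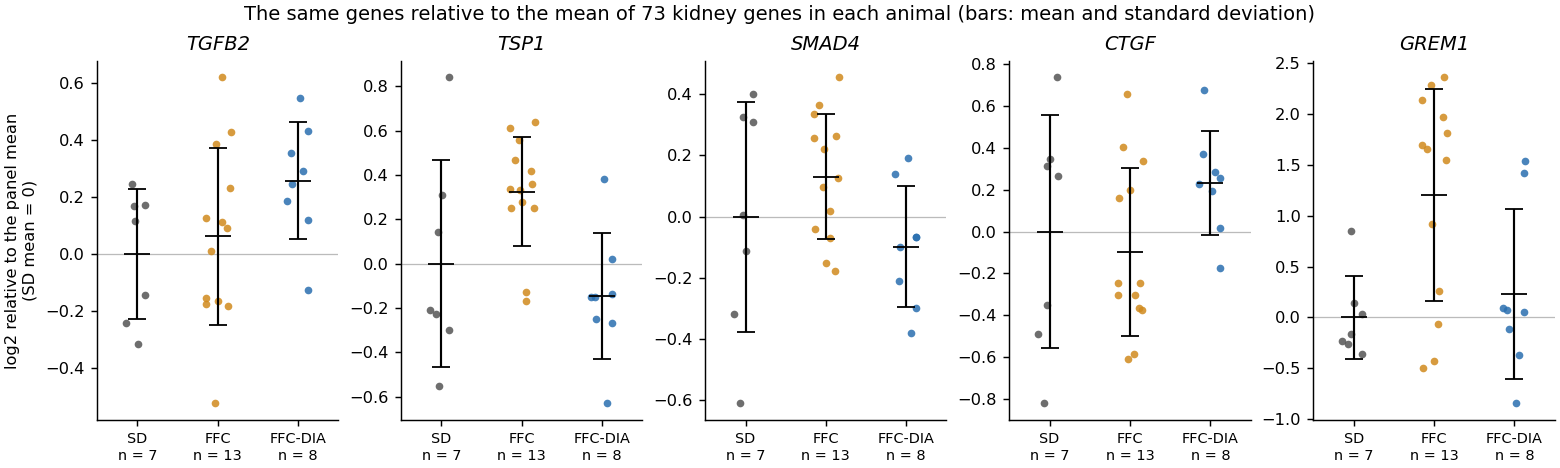
The 5 genes relative to the mean of the 73 kidney genes in each animal (vertical axis, log2, mean of the SD group = 0) in the SD (n = 7), FFC (n = 13) and FFC-DIA (n = 8) groups. Points are animals and bars give mean and standard deviation. TSP1 lay between -0.17 and 0.64 in FFC animals and between -0.63 and 0.38 in FFC-DIA animals, and the groups overlapped for each gene.

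In the test over all 3 groups, a permutation test of the F statistic with Bonferroni adjustment over 73 genes, 0 of the 5 members passed, while 5.48% of the genes did. The permutation p was 0.00141 for SMAD4, 0.00211 for TSP1, 0.00977 for GREM1, 0.0366 for TGFB2 and 0.138 for CTGF. The adjusted value of SMAD4 was 0.10. With Benjamini-Hochberg adjustment SMAD4 and TSP1 passed, at adjusted permutation p-values of 0.0206 and 0.0211. Without FFC 13 SMAD4 passed Bonferroni adjustment too, at 0.0117. Limma called 0 members.

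A ratio of 2 genes in the same animal does not contain the reference genes, so ratios between members were also compared. This was added after the values had been seen, and p-values were adjusted over the 2628 pairs that the 73 genes form. In FFC-DIA vs. FFC the exact permutation test called 5.82% of all pairs and 2 of the 10 ratios between members. Both of these contain TSP1, so they are not 2 separate results. The ratio of TSP1 to CTGF, activator over target, ran from -0.10 through 0.46 to 0.94 on the log2 scale in FFC animals and from -0.93 through -0.45 to 0.18 in FFC-DIA animals. Of the FFC-DIA animals 5 of 8 lay below every FFC animal. The difference was -0.80 (standard error 0.18), or 0.57-fold, with an exact permutation p of 0.000216, adjusted to 0.00693, and leaving out any 1 animal kept the adjusted value between 0.00362 and 0.0183.

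The ratio of TGFB2 to TSP1, ligand over activator, ran from -1.08 through -0.33 to 0.75 in FFC animals and from 0.14 through 0.38 to 0.92 in FFC-DIA animals. Every FFC-DIA animal was above the SD mean of 0, and 1 lay above every FFC animal. The difference was 0.67 (standard error 0.16), or 1.59-fold, with an exact permutation p of 0.00169, adjusted to 0.0351. This call was lost without any 1 of FFC-DIA 2, 5, 7 or 8 or FFC 2, 3, 5, 8 or 9, with adjusted values up to 0.0860, while the difference stayed between 0.59 and 0.75 over all 21 omissions. In FFC vs. SD 0.457% of all pairs and 0 of the 10 ratios were called, with CTGF to GREM1 the smallest exact permutation p (0.00906, adjusted 0.15), a difference of -1.30 (standard error 0.36). In FFC-DIA vs. SD 5.02% of all pairs and 0 of the 10 ratios were called, and TGFB2 to SMAD4 had the smallest exact permutation p, 0.0693, with a difference of 0.35 (standard error 0.18).

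**Figure D4:**
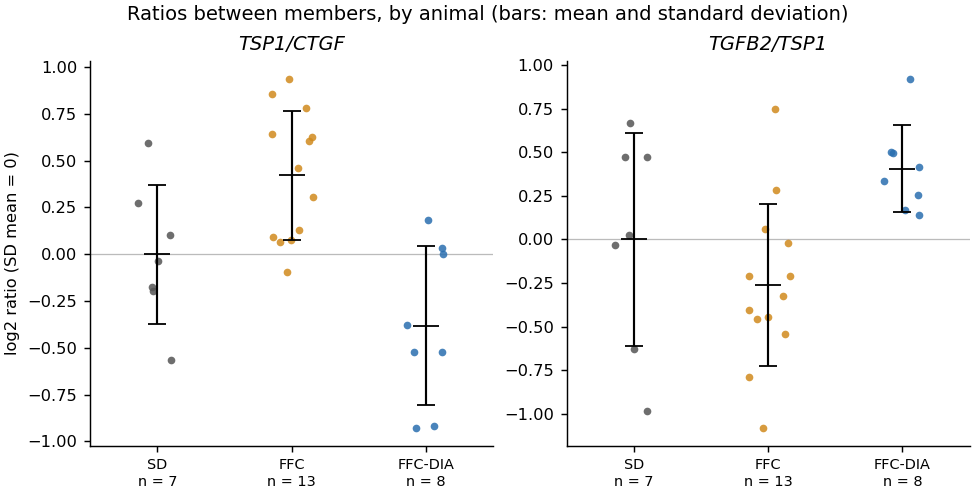
Log2 ratios of TSP1 to CTGF and of TGFB2 to TSP1 (vertical axis, mean of the SD group = 0) in each animal of the SD (n = 7), FFC (n = 13) and FFC-DIA (n = 8) groups, with bars for mean and standard deviation. The FFC-DIA mean was -0.38 for TSP1 to CTGF against 0.42 in FFC animals, and 0.41 for TGFB2 to TSP1 against -0.26.

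GREM1 did not spread evenly. Between 1.11 and 1.90 on the reference gene scale no animal was found, and 10 animals lay above this gap, 8 FFC and 2 FFC-DIA (FFC-DIA 6 and FFC-DIA 8). The 18 below it were all 7 SD animals, 5 FFC and 6 FFC-DIA. RPL4, which enters these values, had a median Cq of 9.55 above the gap and 7.74 below it, and FFC-DIA 6 and FFC-DIA 8 had the latest RPL4 Cq of their group, 10.2 and 9.26 against 6.88 to 7.90 in the other 6. The same 10 animals were the highest on scales without RPL4, at 1.503 or more against at most 0.95 with ACTB and TBP1, and at 1.43 or more against at most 0.92 relative to the panel mean. The 4 FFC animals with the lowest GREM1 were FFC 4 (0.31), FFC 11 (0.01), FFC 12 (0.52) and FFC 13 (-0.63).

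The gene whose animal-to-animal pattern was most like that of GREM1 was NPHS1, which encodes nephrin, a protein of the podocyte slit diaphragm. After group means were removed on the panel-mean scale, Pearson's r was 0.78 and Spearman's rho 0.80 over 28 animals, and r was 0.69 without the 2 animals with the most extreme GREM1. Within groups r was 0.87 (FFC), 0.83 (FFC-DIA) and 0.14 (SD). These values are a description, since NPHS1 was picked from 72 genes for its likeness, and both values of an animal come from 1 RNA sample. The second gene was NOS3, endothelial nitric oxide synthase, with r = 0.65. WT1, the other podocyte gene on the panel, had r = -0.10 with GREM1.

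NPHS1 was also higher in FFC than in SD animals, by 1.54 (standard error 0.38, adjusted exact permutation p = 0.0448), and WT1 by 0.25 (standard error 0.27, adjusted 0.40). The ratio of GREM1 to NPHS1 differed between FFC and SD by 0.19 (standard error 0.28, exact permutation p = 0.49) and between FFC-DIA and FFC by -0.32 (standard error 0.22, exact permutation p = 0.19). Because NPHS1 was picked for its likeness to GREM1 in these same animals, these p-values are a description and not a separate check. The ratio of GREM1 to WT1 differed between FFC and SD by 1.47 (standard error 0.50, exact permutation p = 0.0203, adjusted 0.21). In bulk tissue, more cells of a type and more RNA per cell cannot be told apart.

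**Figure D5:**
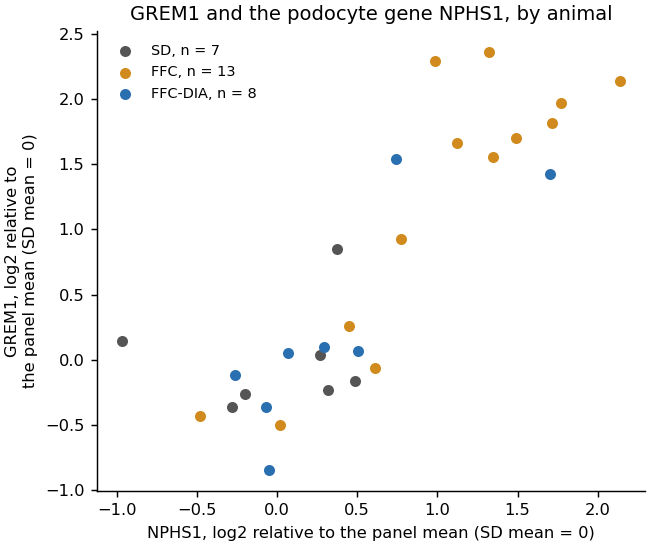
GREM1 (vertical axis) against the podocyte gene NPHS1 (horizontal axis), both as log2 values relative to the panel mean with the mean of the SD group at 0, for each SD (n = 7), FFC (n = 13) and FFC-DIA (n = 8) animal. Animals with high GREM1 also had high NPHS1, and FFC-DIA 6 lay at 1.70 for NPHS1 and 1.43 for GREM1.

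Markers of kidney cell types were read beside the members. All 13 had a Cq in every animal, and the podocyte genes NPHS1 and WT1, at mean Cq 16.6 and 16.8, and the epithelial cadherin gene CDH1, at 9.60, were measured in all of them. In FFC vs. SD 2 of the 13 were called with the reference genes, where 19.2% of all 73 genes were. These were NPHS1 and MRC1, a macrophage gene, both higher. Averaged over the list, the log2 level of an animal lay between -0.56 and 0.73 in the SD group, -0.16 and 1.33 in the FFC group and -0.64 and 1.02 in the FFC-DIA group. On the panel-mean scale, where 1.37% of all genes were called, 0 markers were called higher and CD8A, a T cell gene, was called lower. The adjusted exact permutation p there was 0.117 for NPHS1 and 0.373 for MRC1. With the reference genes 0 of the 13 passed in either comparison of the FFC-DIA group. Relative to the panel mean CD8A was lower in FFC-DIA than in SD animals by -1.04 (adjusted exact permutation p = 0.0416). On the scale and in the comparison in which TSP1 was called, CD68, a macrophage gene, was higher in FFC-DIA than in FFC animals by 0.72 (adjusted exact permutation p = 0.0261). The part of these markers in the members' differences was not tested.

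Other genes of the pathway that were followed were the ligands TGFB1 and TGFB3 and the TGF-beta induced genes FN1, COL1A1, ACTA2, TIMP1 and CDKN1A. Of these 7, 0 passed in FFC vs. SD on either scale, and their median difference with the reference genes was 0.42. On each scale 1 had an unadjusted exact permutation p under 0.05. Of all 73 genes, 25 were higher and 2 lower at that threshold with the reference genes, and 4 were higher and 7 lower relative to the panel mean. CDKN1A, a cell cycle inhibitor, rose in FFC-DIA animals by 2.87 (standard error 0.34) over SD and by 2.59 (standard error 0.31) over FFC, with adjusted exact permutation p-values of 0.0113 and 0.000359. It was the only one of the 7 to pass with the reference genes. Relative to the panel mean TGFB1, the best known ligand, also rose in FFC-DIA over FFC animals, by 0.25 (standard error 0.07, adjusted exact permutation p = 0.0479), from a mean of -0.09 to 0.16. With the reference genes the same difference was -0.03 (standard error 0.20).

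Relations among the members over the 28 animals were computed after group means and the panel mean were removed. No pair passed the permutation test after adjustment over all 2628 gene pairs. Of the 10 pairs, TSP1 and GREM1 had the smallest permutation p for Spearman's rho, 0.56 with p = 0.00155, which became 0.0567 after adjustment over all 2628 gene pairs, and Pearson's r was 0.36 with permutation p = 0.0320, adjusted to 0.26. Without the 2 animals most extreme in TSP1 r was 0.43, and within groups it was 0.43 (SD), 0.65 (FFC) and 0.01 (FFC-DIA). TSP1 and CTGF had r = 0.50 with permutation p = 0.0177, adjusted to 0.19, and rho = 0.43 with permutation p = 0.0364, adjusted to 0.31. For this pair r was 0.35 without the 2 most extreme animals, and within groups it was 0.75 (SD), 0.52 (FFC) and -0.27 (FFC-DIA). TGFB2 and CTGF had r = -0.41 with permutation p = 0.0409 (adjusted 0.29) and rho = -0.37 with permutation p = 0.0701 (adjusted 0.41), and r was -0.20 without the 2 most extreme animals. On the reference gene scale, where all genes of an animal share the same reference Cq, r lay between 0.27 for TGFB2 and CTGF and 0.93 for SMAD4 and GREM1.

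The genes nearest to the other members, chosen for their likeness and given with no test, were as follows. SMAD4 was nearest to ACTN4, an actin crosslinking protein gene, with r = 0.82, and to the growth factor gene VEGFB, with r = 0.76. TSP1 was nearest to LGALS3, galectin 3, with r = 0.61 and to IGFBP7 with r = 0.50. CTGF was nearest to ACE, angiotensin converting enzyme, with r = 0.55, followed by TSP1. TGFB2 had no close neighbour, with r = 0.39 for GSTP1 and 0.37 for the integrin gene ITGA3. All are over 28 animals on the panel-mean scale after removal of group means, and genes in 1 RNA sample share its quality and the panel mean.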

How the data were processed

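Total RNA from kidney tissue of 28 minipigs was reverse transcribed, pre-amplified by PCR and assayed with EvaGreen dye on a microfluidic qPCR system. The authors deposited Cq values, 1 per animal and assay, with no normalization, in a column per sample, and these cycle numbers were used as deposited. Amplification efficiency was not corrected, and a factor of 2 per cycle was assumed. The deposited fold-change table was not used: some of its cells hold words and some rows do not match their gene's Cq. Groups and replicate numbers came from the sample titles. The authors had profiled more genes and kept the assays that met their quality limits. No further assay was removed and no value was missing. qPCR gives no read depth, so precision rests on the number of animals and on Cq. That each sample is 1 animal comes from the series design. No 2 animals had the same Cq profile.

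For the log2 relative quantity, each gene's Cq was subtracted from the average of ACTB, TBP1 and RPL4, and the SD mean was set to 0. Pairs of groups were compared by two-sided exact permutation of the difference of means (77520 groupings for FFC vs. SD, 6435 for FFC-DIA vs. SD and 203490 for FFC-DIA vs. FFC), with Benjamini-Hochberg adjustment over 73 genes at 0.05. The 3 groups were compared by permuting labels 100000 times, with Bonferroni adjustment. Relations used 100000 permutations within groups. Their p-values were adjusted over all 2628 gene pairs instead of the planned 10 member pairs. Tests were checked on simulated data. Python 3.11.15, NumPy 2.4.6, SciPy 1.17.1 and limma 3.58.1 in R 4.3.3 were used.

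The members and lists were chosen with earlier results of these data known. The 5 members are named in each comparison, of 7 other pathway genes those that passed a test, and for each member the 2 genes with the highest r. Some items are not reported here, although all genes stayed in the tests. Study cohort and the number of cDNA replicates were not given per animal in the labels and were not used. Alternatives were each reference gene alone (GAPDH also without SD 6), all 4, ACTB and TBP1, panel centring, rank-sum and rank statistics, limma with and without the replicate number, linear quantities, the F distribution, another adjustment, omission of assays with a mean Cq above 18, and each animal left out. Primer sequences were copied from the study's supplementary list of assays.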

Additional observations from a re-analysis of the deposited data

Results flagged for a closer look

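Dixon's test was run on the lowest and highest animals of the SD and FFC-DIA groups, for 5 genes on both scales, which makes 20 groups. The FFC group, with 13 animals, was not tested. Chance flags about 5% of groups. GREM1 in SD 6, relative to the panel mean, stood apart from its group at 0.85, the other 6 SD animals lying between -0.36 and 0.14. Its gap was 0.58 of the group's range, against a critical value of 0.568. SD 6 is also the animal with the GAPDH Cq of 20.6, and GAPDH does not enter the values. Without SD 6, the difference of GREM1 between FFC and SD relative to the panel mean was 1.35, with an adjusted exact permutation p of 0.0953.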

How the results depend on the processing

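Of 283 values of single genes under the alternatives, 221 kept direction and side of the threshold, 23 lost the call, 13 gained one and 26 changed sign. With 1 animal left out these numbers were 675, 51, 9 and 7 of 742. The cause of the changes was not tested, except that fewer animals were tested when 1 was left out, and that the sign changes with GAPDH alone against SD came from SD 6.

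In FFC vs. SD 3 members were called. The count was 0 with ACTB, TBP1 or GAPDH alone, with all 4 reference genes, with ACTB and TBP1, with the panel mean, with linear quantities and with GAPDH alone without SD 6, 2 with the rank-sum statistic, where TSP1 had an adjusted p of 0.0660, and 5 with RPL4 alone. Of all genes, 72.6% were called with RPL4 alone, 11.0% with the rank-sum statistic, 1.37% with the panel mean or linear quantities and 0 with the other references named here. It lay between 0 and 4 with 1 animal left out. In FFC-DIA vs. FFC 0 were called. The count was 1 with ACTB alone, with ACTB and TBP1, with the panel mean, with the rank-sum statistic and without assays with a mean Cq above 18, and 2 with TBP1 alone, where 9.59%, 8.22%, 8.22%, 6.85%, 7.46% and 12.3% of all genes were called. It lay between 0 and 2 with 1 animal left out. Relative to the panel mean, 1 member was called in FFC-DIA vs. FFC, with 0 to 1 when 1 animal was left out. The 3-group count of 0 became 1 with TBP1 alone and 2 with Benjamini-Hochberg adjustment, and lay between 0 and 1 with 1 animal left out. In FFC-DIA vs. SD the count was 0 under every alternative.

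In FFC vs. SD, CTGF changed sign to -0.048 with ACTB alone and -0.10 with the panel mean. With GAPDH alone TGFB2 was -0.75, TSP1 -0.49, SMAD4 -0.68 and CTGF -0.91, and without SD 6, a setting added after the values were seen, they were 1.01, 1.27, 1.06 and 0.88. In FFC-DIA vs. SD, GAPDH alone gave -1.03 for TGFB2, -1.44 for TSP1, -1.39 for SMAD4, -1.06 for CTGF and -1.06 for GREM1, which became 0.73, 0.32, 0.35, 0.73 and 0.82 without SD 6. In that pair TSP1 was -0.29 with TBP1 alone, -0.29 with all 4 reference genes, -0.056 with ACTB and TBP1 and -0.15 with the panel mean, and SMAD4 was -0.24, -0.24, -0.0052 and -0.10. In FFC-DIA vs. FFC, TGFB2 was 0.47 with ACTB alone, 0.18 with ACTB and TBP1 and 0.20 with the panel mean. SMAD4 was 0.049 with ACTB alone. CTGF was -0.48 with RPL4 alone, -0.15 with GAPDH alone and -0.012 with linear quantities. With 1 animal left out TSP1 in FFC-DIA vs. SD ran from -0.087 to 0.175, CTGF in FFC-DIA vs. FFC from -0.019 to 0.15, TGFB2 in FFC-DIA vs. FFC from -0.18 to 0.011, and CTGF in FFC vs. SD relative to the panel mean from -0.23 to 0.025.

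The titles do not say that the replicate numbers pair the animals, and the main tests did not use them as pairs. Deviations of same-numbered animals correlated between -0.34 and 0.11 for FFC and SD and between -0.48 and -0.10 for FFC-DIA and FFC. For FFC-DIA and SD they correlated between -0.47 and 0.54, with a median of 0.17. With only 7 or 8 shared numbers per pair, these values cannot show whether the animals were matched. With the replicate number as a block, limma called 3 members in FFC vs. SD, 0 in FFC-DIA vs. SD and 0 in the 3-group test. Those counts were the same in limma without the block. In FFC-DIA vs. FFC limma with the block called 2 members, SMAD4 at -0.58 and GREM1 at -1.51. Of all 73 genes, limma with the block called 16.4% in FFC vs. SD, 2.74% in FFC-DIA vs. SD and 6.85% in FFC-DIA vs. FFC. Without the block these shares were 12.3%, 2.74% and 5.48%. The deposited fold-change table was planned as an alternative and was not run. GREM1, with the latest mean Cq of the panel, is 1 of 6 genes that the limit of 18 cycles leaves out, so it has no value there.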
